A study of Bos grunniens with 18 samples.

Results

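The m6A peaks of the yak ovary in pregnancy (YO-P) were set against those in anestrus (YO-A). N6-methyladenosine (m6A) is the most abundant internal mark of messenger RNA. It is written by a complex around METTL3 and METTL14, removed by FTO and ALKBH5, and bound by YTH proteins that act on splicing, decay and translation of the RNA. Peaks of m6A are typically found in long internal exons, around stop codons and in 3′ UTRs, and loss of writers, erasers or readers is known to impair oocyte maturation and fertility in the mouse. The members were the plus-strand peaks of both deposited lists on chromosome 1 that end by position 27546263, the part that the 2 lists cover together. They were 16 of the 292 peaks analysed, of which 10 belonged to anestrus and 6 to pregnancy. A peak was called shared when it overlapped a peak of the other stage by at least 1 bp on the same strand, and otherwise anestrus-only or pregnancy-only. The anestrus list ends there as analysed here, so the 276 other pregnancy peaks had no counterpart to be set against.

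Ovaries came from healthy yaks (Bos grunniens) aged 6 years that were euthanized on 1 farm, in April for anestrus and in December for pregnancy. For each stage, m6A RIP libraries were made from 3 ovarian samples, that is, fragments of polyadenylated RNA pulled down with an antibody against m6A, together with 3 input libraries of RNA without the pull-down. Each stage was collected in 1 month, so that stage and season cannot be told apart. There is 1 peak list per stage, without values for single replicates, and differences between the peak lists therefore have no test.

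The expression table analysed here gave an FPKM value per input library for 173 genes. FPKM values summed to 2520 to 2667 per library of YO-A and YO-P, and the median Pearson correlation of a library with the other 5, across the 130 genes tested, was 0.952 to 0.964. The number of reads behind a value was not in the files, and no counting error was computed for expression. Of 50 markers of ovarian and other cell types and of m6A enzymes, 2 were among the 173 genes, so the tissue could not be checked by its own markers. Both were leukocyte genes, CD84 with an FPKM of 0.760 to 2.66 in anestrus and 2.87 to 6.35 in pregnancy, and CD96 with 0.732 to 1.07 and 1.15 to 2.67. Their part in the results given here was not tested.

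In the stretch covered by both lists, the same 3 genes carried every shared peak: VGLL3, USP25 and ENSBGRG00000000034. Of the 6 pregnancy peaks, 4 were shared (66.7%, exact 95% binomial interval 22.3% to 95.7%) and 2 were pregnancy-only. Of the 10 anestrus peaks, 5 were shared (50.0%, 18.7% to 81.3%) and 5 were anestrus-only, in RBM11, USP25, CHODL, NCAM2 and GABPA. These intervals cover counting error only. A pregnancy peak in VGLL3 spanned 2 anestrus peaks, so the shared peaks formed 5 pairs. Among the anestrus peaks, 3 lay in a 3′ UTR, 1 in a 5′ UTR and 6 in other exons. Among the pregnancy peaks these numbers were 1, 1 and 4.

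**Figure D1:**
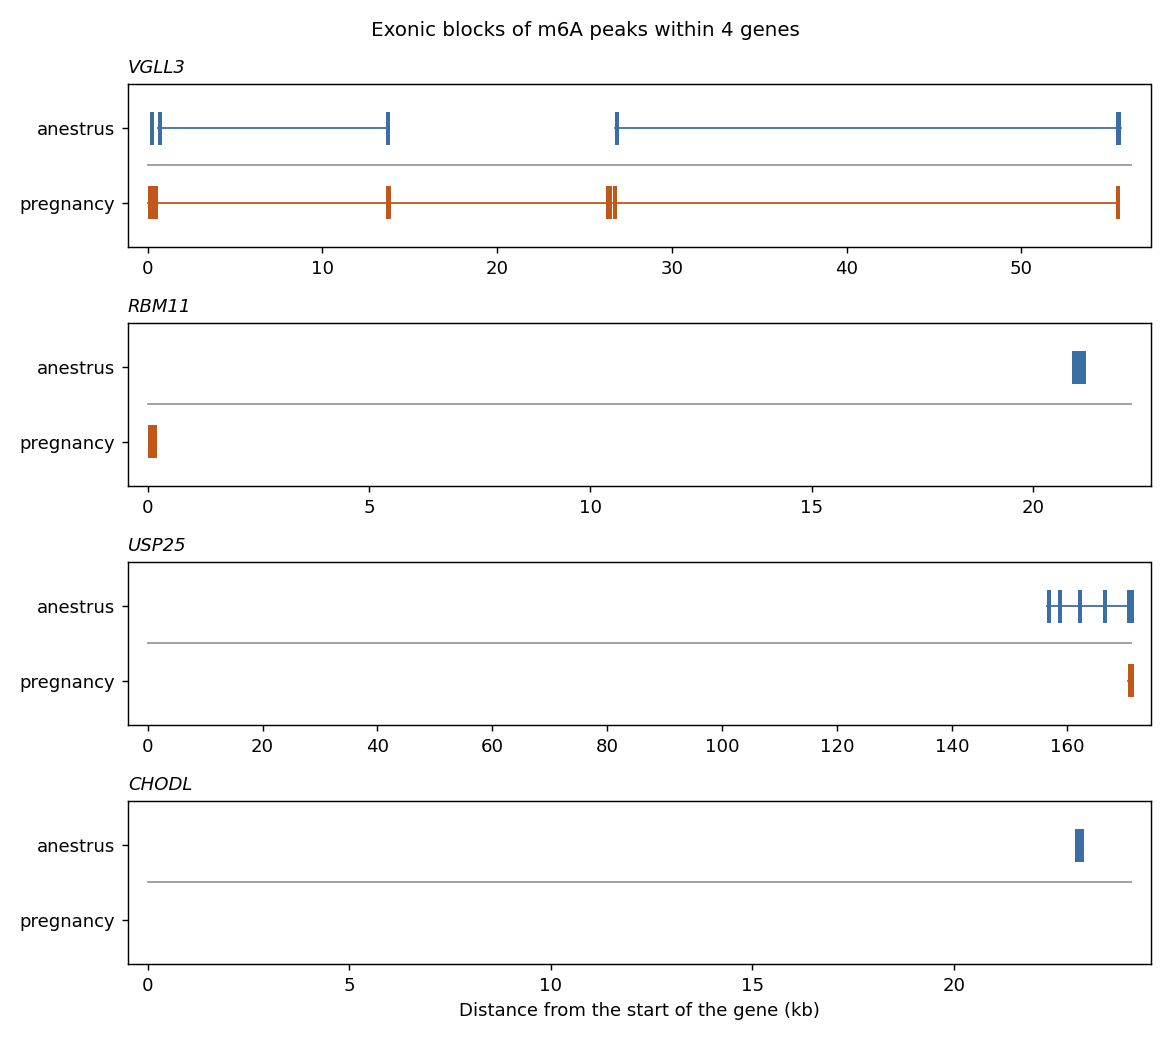
Exonic blocks of m6A peaks in VGLL3, RBM11, USP25 and CHODL, by distance from the start of the gene in kb, for the anestrus list (blue, upper row) and the pregnancy list (orange, lower row). Thick bars are exonic blocks, widened where they would be too narrow to see, thin lines join blocks of 1 peak, and the grey line is the gene. Blocks of both stages overlap in part in VGLL3 and at the end of USP25. RBM11 has its anestrus peak near its end and its pregnancy peak at its start, and CHODL has a peak in anestrus and none listed in pregnancy.

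VGLL3 (ENSBGRG00000000004, chromosome 1, 956005 to 1012265) encodes a vestigial-like cofactor of TEAD transcription factors. In anestrus it carried 3 peaks. The first, in the 5′ UTR (956124 to 956392, 269 exonic bp), had a fold enrichment, the ratio of immunoprecipitated to input signal, of 8.91. The second (956600 to 969814, 180 exonic bp, from exon 1 of 5) had a fold enrichment of 20.8, the largest of the 10 anestrus peaks. The third, in the 3′ UTR (982761 to 1011729, 328 exonic bp), had a fold enrichment of 6.13.

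In pregnancy, VGLL3 carried 2 peaks, each overlapping the exonic blocks of anestrus peaks in part. The first (956005 to 982433, 4 blocks with 1072 exonic bp) began at the first base of the gene and had a fold enrichment of 17.8, the 7th highest of the 282 pregnancy peaks. It contained all 269 exonic bp of the first and all 180 exonic bp of the second anestrus peak. Its blocks at 982255 to 982361 and 982364 to 982433 lay in no anestrus peak. The second (982612 to 1011551, 299 exonic bp) had a fold enrichment of 4.15 and shared 150 exonic bp with the third anestrus peak. The log2 ratio of pregnancy to anestrus fold enrichment was 1.00 for the first anestrus peak, which itself was short of an FDR of 0.05 (log10 FDR -1.18), -0.22 for the second and -0.56 for the third. VGLL3 thus had listed peaks in its 5′ UTR and in its 3′ UTR in both stages, and the ratios of its 3 pairs had both signs.

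USP25 (ENSBGRG00000000031, chromosome 1, 16016068 to 16187193) encodes a deubiquitinating enzyme. Its shared peak lay at the 3′ end of the gene, from exon 25 of 26 to the last base. The fold enrichment there was 2.06 in anestrus (16186709 to 16187193) and 2.24 in pregnancy (16186650 to 16187193), a log2 ratio of 0.12. All 180 exonic bp of the anestrus peak were inside the pregnancy peak. The log10 of the false discovery rate (FDR) was -37.4 in anestrus and -67.6 in pregnancy, so this was the pair with the strongest evidence in pregnancy and a low fold enrichment in both stages.

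ENSBGRG00000000034, a gene without a symbol or description in the files, had a shared peak with a fold enrichment of 8.42 in anestrus (16667823 to 16704457) and 7.56 in pregnancy (16667373 to 16680127). The log2 ratio was -0.16, and 61 exonic bp were common to 331 in anestrus and 511 in pregnancy. The log10 FDR was -2.79 in anestrus and -1.07 in pregnancy, the latter short of an FDR of 0.05. Over the 5 pairs the log2 ratio ran from -0.56 to 1.00 with a median of -0.16, with 3 pairs lower and 2 pairs higher in pregnancy. The highest ratio set a pregnancy peak of 1072 exonic bp in VGLL3 against an anestrus peak of 269. The same pregnancy peak also entered the pair with a ratio of -0.22, so the pairs are not independent. All 5 pairs also overlapped in their exonic blocks.

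The 5 anestrus-only peaks were weaker in enrichment than the shared peaks of the same list, with a median fold enrichment of 2.05 (1.56 to 5.03) against 8.42 (2.06 to 20.8). All 5 had a log10 FDR of -2.09 or below. CHODL (ENSBGRG00000000043, chromosome 1, 18845347 to 18869739) encodes chondrolectin, a membrane protein with a C-type lectin domain. Its peak in the 3′ UTR (18868344 to 18868581) ended 1158 bp before the end of the gene. With a fold enrichment of 5.03 and a log10 FDR of -43.4, it had the lowest FDR of the 10 anestrus peaks, and no pregnancy peak was listed in the gene.

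RBM11 (ENSBGRG00000000023, chromosome 1, 14212338 to 14234545) encodes an RNA-binding protein that acts in alternative splicing. Its anestrus peak, also in the 3′ UTR (14233227 to 14233527), had a fold enrichment of 3.48 and a log10 FDR of -11.9, and ended 1018 bp before the end of the gene. The CHODL and RBM11 peaks were centred at nearly the same relative place, 94.8% and 94.7% of the gene span.

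The second USP25 peak of anestrus (16172664 to 16186530, 5 blocks from exon 21 of 26) had a fold enrichment of 1.56, the lowest of the 10. It ended 119 bp before the pregnancy peak of the gene began. NCAM2, a neural cell adhesion molecule, had an anestrus-only peak from exon 14 of 18 (22428117 to 22449705) with a fold enrichment of 2.05 and a log10 FDR of -2.43. GABPA, the DNA-binding subunit of the GA-binding protein, had one from exon 5 of 10 (27544221 to 27546263) with a fold enrichment of 1.79 and a log10 FDR of -2.09. The first GABPA peak of the pregnancy list (27555041 to 27567800, fold enrichment 3.57, exon 8 of 10) started 8777 bp further on, outside the part that the anestrus list covers.

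Both pregnancy-only peaks had weak evidence. The first (14212338 to 14212548, 211 bp) had a fold enrichment of 4.86 and a log10 FDR of -1.07. It was listed under LIPI, a lipase gene on the minus strand, but its place in the list and its exon annotation put it on the plus strand, where it begins at the first base of RBM11 in exon 1 of 5. Read as RBM11, the listed peak of that gene lay at its 5′ end in pregnancy and near its 3′ end in anestrus. The second (14389168 to 14389288, 121 bp) was in exon 28 of 28 of ENSBGRG00000000024, annotated as an ABC transporter, with a fold enrichment of 4.32 and a log10 FDR of -0.60. When an FDR under 0.05 was required in both lists, 0 pregnancy-only peaks were left, against 6 anestrus-only peaks. These 6 included the anestrus peak of ENSBGRG00000000034, counted as shared above. The pregnancy peak that overlaps it (log10 FDR -1.07) was removed by the requirement.

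**Figure D2:**
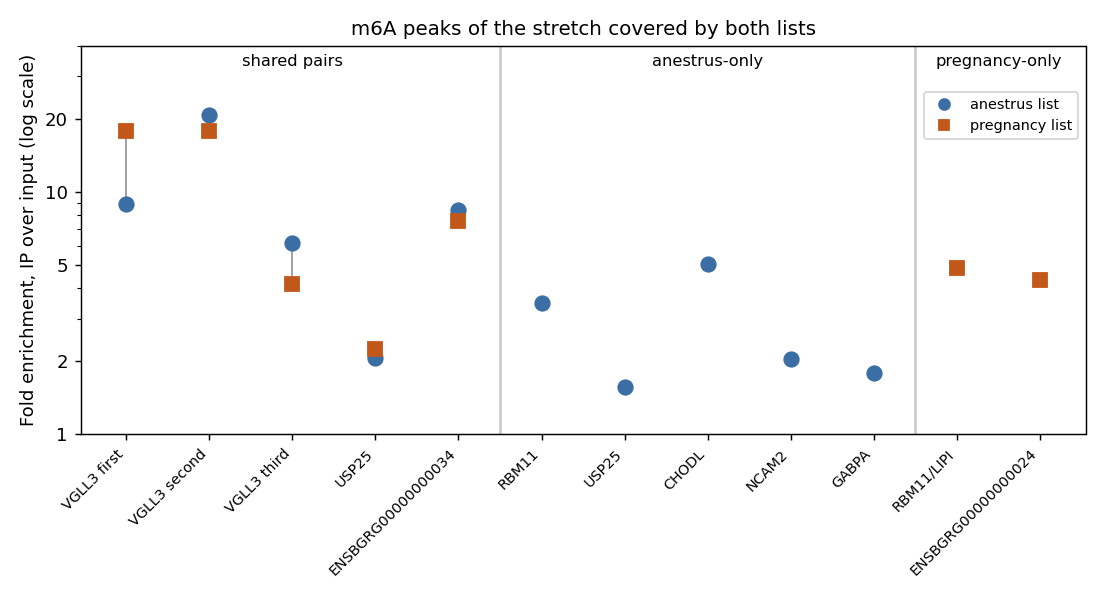
Fold enrichment of immunoprecipitation over input on a log scale for the 5 shared pairs, the 5 anestrus-only peaks and the 2 pregnancy-only peaks, with circles for the anestrus list and squares for the pregnancy list. Each point is 1 listed peak, the first pregnancy peak of VGLL3 is drawn in both of its pairs, and there are no error bars because each stage has 1 list. Shared pairs span 2.06 to 20.8, and 4 of the 5 anestrus-only peaks lie below 4.

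The expression of the same genes was then compared between pregnancy and anestrus with limma on log2(FPKM + 0.1), a scale that understates changes at low FPKM. A gene met the standard used here when its log2 fold change was 1 or more in either direction with an unadjusted p under 0.05. It was met by 0 of the 8 tested genes listed for these peaks. In the whole table it was met by 3 of 130 genes tested, or 2.31%, all of them higher in pregnancy, one being the leukocyte gene CD84. After Benjamini-Hochberg adjustment in limma, 0 of 130 genes (0.0%) had p under 0.05, while 4 did before it (3.08%). The 8 genes had log2 fold changes of -1.13 to 0.45 with a median of 0.17, 6 of them above 0 and 2 below. Over the 130 genes the median was -0.03, with 61 above 0 and 69 below. Without LIPI, whose listed peak lies at the start of RBM11, 5 were above 0 and 2 below, with a median of 0.22. In whole ovaries, a change in the number of cells that express a gene and a change in RNA per cell cannot be told apart. For single genes an exact two-sided permutation test over 3 and 3 libraries cannot give a p below 0.1.

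Of the genes with shared peaks, VGLL3 had FPKM values of 6.41, 2.24 and 2.81 in anestrus and 5.80, 3.55 and 5.17 in pregnancy. The libraries of the stages overlapped, the highest being an anestrus library. The log2 fold change was 0.45 (SE 0.39 in limma, with Benjamini-Hochberg adjusted p = 0.910). It was 0.89 when anestrus replicate 1 was left out and 0.15 when anestrus replicate 2 was, and did not meet the standard in either case.

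USP25 had 13.2, 7.37 and 9.90 in anestrus and 13.8, 13.3 and 8.74 in pregnancy, with a log2 fold change of 0.25 (limma SE 0.26, adjusted p = 0.910). The stages overlapped here too. ENSBGRG00000000034 was barely detected, with 0.0264, 0.00574 and 0.0344 in anestrus and 0.0521, 0.0801 and 0.0412 in pregnancy. The lowest pregnancy value lay above the highest of anestrus (exact permutation p = 0.1), but the gene was below the minimum mean FPKM of 0.1 and was not tested with limma. Among the 130 genes tested, the libraries of the stages did not overlap for 12, or 9.23%, and for 7 of them, or 5.38% of those tested, pregnancy was the higher. In this gene, fold enrichments of 8.42 and 7.56 thus stood on input values under 0.1 FPKM.

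Among the genes with anestrus-only peaks, CHODL had 11.6, 4.15 and 18.7 FPKM in anestrus and 3.83, 4.35 and 4.98 in pregnancy. The second anestrus library lay within the pregnancy range and the other two above it (exact permutation p = 0.3). The log2 fold change was -1.13 (limma SE 0.50, adjusted p = 0.874), and the unadjusted p of 0.0501 in limma fell just short of the standard. CHODL met the standard in 6 of 18 refits with other settings, with adjusted p of 0.123 to 1.00 over the 18. The log2 fold change was -1.73 when anestrus replicate 2 was left out, which met the standard, and -0.66 when anestrus replicate 3 was left out, which did not. CHODL, whose 3′ UTR peak was in the anestrus list only, thus had a mean FPKM in anestrus and pregnancy of 11.5 ± 7.28 (SD, n = 3) and 4.39 ± 0.573 (SD, n = 3).

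For RBM11 the libraries of the stages overlapped. FPKM values were 3.85, 1.88 and 4.20 in anestrus and 4.35, 3.67 and 3.28 in pregnancy, with a log2 fold change of 0.25 (limma SE 0.33, adjusted p = 0.910). The sign of this change turned when anestrus replicate 2 was left out (-0.10). NCAM2 ran from 1.75 to 2.65 in anestrus and from 1.04 to 4.79 in pregnancy (log2 fold change 0.08), and this sign turned in 3 of the alternatives. GABPA ran from 8.16 to 11.7 and from 10.8 to 11.8 (log2 fold change 0.22). Of the genes listed for pregnancy-only peaks, ENSBGRG00000000024 ran from 0.0612 to 1.94 in anestrus and from 0.0878 to 1.83 in pregnancy, and LIPI from 0 to 0.185 and from 0 to 0.242. The sign of the change in both genes turned with 1 library left out.

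**Figure D3:**
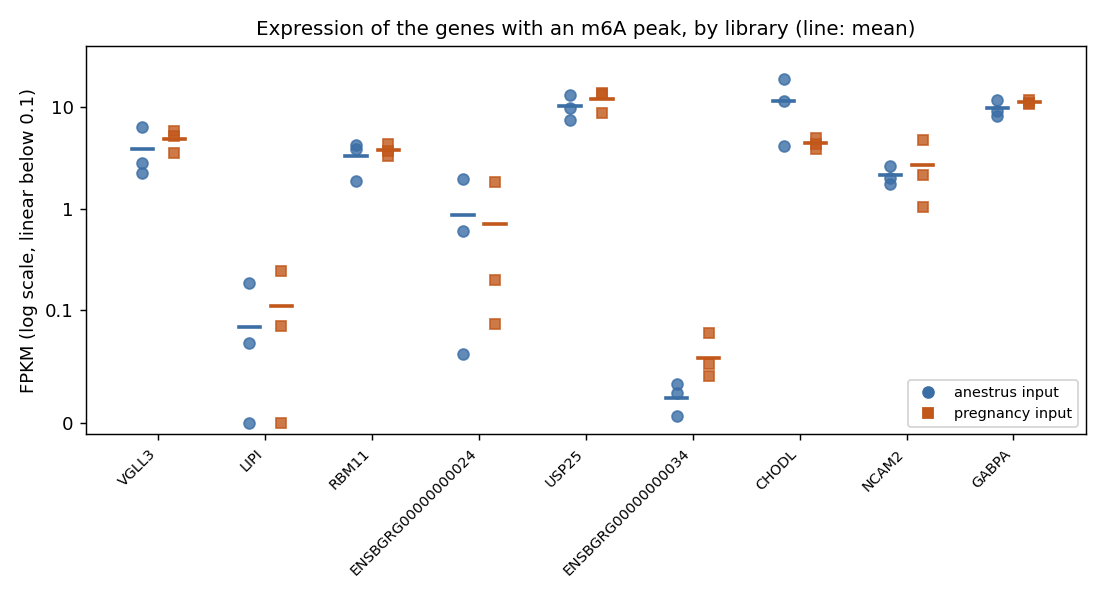
FPKM in the 3 anestrus (circles) and 3 pregnancy (squares) input libraries for the 9 genes listed for peaks in the stretch, on a log scale that is linear below 0.1. Points are libraries and short lines are means. The libraries of the stages overlap for 8 genes and do not overlap for ENSBGRG00000000034, which lies below 0.1 in every library.

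Fold enrichment and expression were set side by side for the 5 pairs. In 2 pairs, the first VGLL3 pair and USP25, the fold enrichment and the mean FPKM were both higher in pregnancy. In the other 3, the fold enrichment was lower in pregnancy and the mean FPKM was higher. Since 3 pairs came from 1 gene, no correlation was computed.

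The genes with peaks were then set beside genes without. The table held 18 plus-strand genes that begin in the stretch, of which 8 had a peak in one list or both. Their mean FPKM over the 6 libraries had a median of 3.93 (0.0400 to 11.1), and that of the 10 genes without a peak 2.71 (0 to 91.0). The genes without a peak thus included some with higher FPKM than any gene with one. ROBO1, a receptor of SLIT guidance proteins, had 9.87 to 24.5 FPKM in anestrus and 9.80 to 16.3 in pregnancy, and JAM2, a junctional adhesion molecule, had 43.5 to 52.2 and 33.1 to 57.4. GBE1, the glycogen branching enzyme, had 9.68 to 13.1 and 10.4 to 11.2. Unlike ROBO1 and JAM2, it was not above every gene with a peak. Its mean over the 9 input libraries was 10.9, and that of USP25 was 11.1. None of the 3 had a peak in either list. The 7 tested genes with a peak had a median log2 fold change of 0.22, and the 7 tested genes without one of -0.09.

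A further deposited table compares methylation between pregnancy and anestrus region by region. All 8 of its complete rows were read beside the lists, and none was used to choose a member. The sign was taken as pregnancy over anestrus from the order of the stages in its name. The log2 fold change was negative in 7 rows, from -0.99 to -0.33, and positive in 1, and the FDR was under 0.05 in 4 rows, 3 negative and 1 positive. Of the 8 regions, 5 lay in a 3′ UTR.

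The RBM11 row (14233257 to 14233527) was the only one of the 8 inside the stretch covered by both lists. It covered the place of the anestrus-only 3′ UTR peak, and had a log2 fold change of -0.50 with an FDR of 0.114. CHODL, NCAM2, USP25, VGLL3 and GABPA had no row among the 8.

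The other 7 rows, among them the positive one, lay further along chromosome 1, where only the pregnancy list could be set beside them. NSUN3, a mitochondrial tRNA methyltransferase, had 2 rows, with a log2 fold change of -0.78 in exon 3 of 6 (41256097 to 41256366, FDR 0.0759) and of -0.58 in the 3′ UTR (41265434 to 41310473, FDR 0.0324). TRMT10C, a subunit of mitochondrial RNase P that also methylates tRNA, had -0.36 in exon 3 of 3 (49572450 to 49573670, FDR 4.68e-05). CMSS1 had -0.99 (FDR 0.0603) and ST3GAL6, a sialyltransferase, -0.52 (FDR 0.191), both in the 3′ UTR. C3orf38 had -0.33 in its 3′ UTR (38849457 to 38850323, FDR 0.0191).

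In 5 of the 8 rows, RBM11, both NSUN3 rows, ST3GAL6 and CMSS1, no pregnancy peak overlapped the region, and all 5 had a negative log2 fold change (-0.99 to -0.50). Of these 5, only the 3′ UTR row of NSUN3 had an FDR under 0.05 (0.0324). The lists and the comparison come from the same libraries, so they are not independent of each other. The 3 rows with a pregnancy peak had 2 negative values and 1 positive. The pregnancy peak in the TRMT10C region had a fold enrichment of 5.81. The C3orf38 region was overlapped by 2, of 10.3 (by 1 bp) and 10.7 (by 419 bp). Up to the end of the last row, 4 of 41 plus-strand pregnancy peaks overlapped a row, the overlap of 1 bp included. Of the 7 genes that the rows are listed under, 2 were in the expression table. C3orf38 had FPKM values of 6.72, 6.82 and 5.11 in anestrus and 6.39, 5.94 and 5.35 in pregnancy, a log2 fold change of -0.07 (limma SE 0.19, adjusted p = 0.921), and the stages overlapped. The sign of this change turned when anestrus replicate 2 was left out (0.0032).

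The whole pregnancy list, the members in the stretch included, was also set against expression. Each peak was counted for the gene it is listed under. The peak at the start of RBM11 thus counted for LIPI and not for RBM11. On the plus strand, the 20 genes of the table with a pregnancy peak anywhere in the list had a median FPKM of 8.08, and the 42 genes within reach of the list without one 0.400. Of these, 19 and 25 passed the minimum mean FPKM of 0.1. Peak calls and FPKM rest on the same input libraries, so they are not independent. The difference between the medians was not tested. Of the 41 tested genes with a pregnancy peak on either strand, genes of the stretch again included, 0 met the standard for expression (background 2.31%), and their median log2 fold change was -0.07. Among genes of the table whose pregnancy peaks could not be set against anestrus, the largest fold enrichment was 18.1 in exon 4 of 8 of SON (37206991 to 37207171), a splicing cofactor. SON had 41.1, 40.5 and 38.9 FPKM in anestrus and 38.0, 33.7 and 37.4 in pregnancy. All pregnancy libraries were below all anestrus libraries (exact permutation p = 0.1), by a log2 fold change of -0.15 (limma SE 0.10, adjusted p = 0.910). The stages did not overlap, in either direction, for 3 of the 41 tested genes with a pregnancy peak. In the whole table this held for 12 of 130 (9.23%). NRIP1, a corepressor of nuclear receptors that is needed for ovulation in the mouse, had a fold enrichment of 11.9 in its single exon (15067059 to 15067268). Its FPKM was 6.28 to 9.65 in anestrus and 4.18 to 8.79 in pregnancy, with a log2 fold change of -0.42 (limma SE 0.30, adjusted p = 0.910) and overlapping libraries. HSPA13, a chaperone of the HSP70 family, had a 3′ UTR peak with a log10 FDR of -221, and 13.0 to 16.6 FPKM over both stages (log2 fold change -0.01). URB1, a protein of ribosome biogenesis, had a fold enrichment of 10.8 and 2.06 to 2.89 FPKM (log2 fold change 0.14). HTR1F, a serotonin receptor, had a fold enrichment of 11.9 with FPKM values of 0 to 0.345, another high ratio on a barely detected gene.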

How the data were processed

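Per the labels, m6A RIP and input libraries of 3 anestrus, 3 estrus and 3 pregnancy ovaries were sequenced, 18 in all. The authors filtered reads with fastp, aligned them with HISAT2 (2.0.4 in the submitters' processing notes) to the Bos grunniens genome (version 101 in the paper's methods), and deposited FPKM values from StringTie per gene and input library. The peak lists were deposited with the fold enrichment of immunoprecipitation over input, a ratio, and score columns with the log10 of p and FDR, 1 list per stage, annotated with ChIPseeker 1.18.0. The peak caller and its threshold are not given in the sources used here. The comparison table deposited by the authors holds per region a log2 fold change, the log10 FDR as a score and a p-value. It was read beside the lists only. The values of 1 of its 8 complete rows, the positive one, are not reported here, and that row counts in the totals.

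Each file was analysed in part. The anestrus list gave 9 complete rows and 1, GABPA, cut off after its fold enrichment and annotation and kept. Lists run through the plus strand of a chromosome and then its minus strand, and strand was taken from that order. Of 238 plus-strand pregnancy peaks, 226 were listed under a plus-strand gene. Coordinates are those of the files, and no genome sequence of that build was at hand, so no peak sequence is shown. The 7 symbols of genes with peaks in the stretch were all found in the RefSeq table.

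Overlaps used Python 3.11.15 and pandas 2.3.3. Expression was tested with limma 3.58.1 in R 4.3.3 on log2(FPKM + 0.1). The 130 genes tested averaged 0.1 FPKM or more in the 9 input libraries. The fit took 3 stages over 8 libraries, leaving out YO-F2 as the paper did, with a trend on mean expression. The paper's test works on counts. The fit was checked on simulated data before use: over 50 sets of 130 genes with 26 changed by 3 on the log2 scale, 98.5% of these and 1.77% of the others met the standard. The log2 fold changes of the 130 genes themselves ran from -1.13 to 2.11. The check therefore gives no recovery rate for changes of the size seen here or close to the standard.

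The members and gene lists were chosen with earlier results of these data known. Genes were named when a peak in the shared stretch or a row of the comparison lay in them, and beyond it from the 6 genes of the table with the highest pregnancy fold enrichment. The genes named without a peak were chosen after their values were seen. The labels tie no library to a single animal, so p-values measure the spread between these samples, which may be partly technical. Alternatives were other overlaps, thresholds and stretch ends, other pseudocounts, filters, scalings and library sets, the replicate number as a block, and each library left out.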

Additional observations from a re-analysis of the deposited data

How the results depend on the processing

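Peak counts were 4 shared and 2 pregnancy-only pregnancy peaks, and 5 shared and 5 anestrus-only anestrus peaks. They did not change with overlap of at least 50% of the shorter peak or with overlap of exonic blocks, and the reported direction of the median log2 ratio, -0.16, did not reverse. Without regard to strand, pregnancy-only peaks rose to 13, since 11 minus-strand pregnancy peaks entered while the anestrus list analysed here has none on that strand. With a log10 FDR of at most -1.3 in both lists, 0 pregnancy-only and 3 shared anestrus peaks were left and the median log2 ratio was -0.22. With a fold enrichment of at least 4, 1 anestrus-only peak was left and the median was -0.19. With the stretch ending where the GABPA peak starts, 4 anestrus-only peaks were left and the other counts did not change. Centring sets the median to 0 by construction.

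Genes called over the whole table, 3 in the reported fit, were 1 with a pseudocount of 1 (this gene was lower in pregnancy) and 5 without a filter (171 genes tested). Leaving out each library gave 1 to 4, with 1 without anestrus replicate 3. Genes called among those with peaks, 0 in the reported fit, were 1 (CHODL) with a pseudocount of 1 and in the fit of anestrus and pregnancy alone. Leaving out each library gave 0 to 1, with 1 (CHODL) without anestrus replicate 2, estrus replicate 1 or estrus replicate 3. The cause was not tested. Adjusted calls were 0 in every limma fit.

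The log2 fold change turned sign for NCAM2 with quantile normalization (-0.24), and over the left-out libraries it ran from -0.46 to 0.59 for NCAM2, -0.10 to 0.46 for RBM11, -0.31 to 0.57 for LIPI, -1.37 to 0.51 for ENSBGRG00000000024 and -0.20 to 0.0032 for C3orf38. It kept its sign for VGLL3 (0.15 to 0.89), USP25 (0.04 to 0.46), GABPA (0.10 to 0.36) and CHODL (-1.73 to -0.66). USP25 was lowest without anestrus replicate 2, and GABPA was lowest without anestrus replicate 1 and highest without anestrus replicate 3. The median over all genes was -0.07 to 0.01 under every setting.

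Deviations of same-numbered libraries from their stage means had correlations of 0.39, -0.06 and -0.11 across 130 genes. Those of differently numbered libraries ran from -0.39 to 0.48. With 3 libraries per stage, these values cannot show whether the numbers pair the samples. With the replicate block, 4 genes of the table and 1 gene with a peak (CHODL) met the standard.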
